A study of Mus musculus with 4 samples.

Results

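The genes described here are the 9 nuclear genes for the subunits of cytochrome c oxidase that come in tissue isoforms (Cox4i1, Cox4i2, Cox6a1, Cox6a2, Cox7a1, Cox7a2, Cox8a and Cox8b) together with the related gene Cox7a2l. They were taken by gene symbol, as every probe set annotated to exactly 1 symbol that is one of these names. This gave 14 probe sets of the 45037 on the arrays that are not controls, for 9 of 17097 genes tested. Of the 9 genes, 5 have 1 probe set and 4 have more, and 0 further probe sets name one of them together with another gene.

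RNA came from mouse brown adipocytes harvested after 6 days of differentiation. One group expressed a scrambled short hairpin RNA (scramble, 2 arrays) and the other a hairpin that targets the long noncoding RNA Blnc1 (brown fat lncRNA 1; shBlnc1, 2 arrays), so both groups carried an shRNA and there was no array of cells without one. Each array was labelled from 250 ng of total RNA. The mouse strain, the origin of the cells and the number of hairpins are not given in the sources used here. The replicates are labelled as biological, with no word on separate cultures or animals, so p-values measure the spread between these samples only. The comparison asks how the transcripts depend on Blnc1, and no probe set is named Blnc1 in the annotation used here, so its own level was not analysed here.

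Cytochrome c oxidase is complex IV of the respiratory chain, which passes electrons from cytochrome c to oxygen and pumps protons across the inner mitochondrial membrane. Its catalytic core is encoded by mitochondrial DNA, and the nuclear subunits around it stabilise and regulate it. Several of these come as a ubiquitous isoform and a second one made in particular tissues. Cox6a2, Cox7a1 and Cox8b are the isoforms of heart and skeletal muscle, and Cox7a1 and Cox8b are also widely used as markers of brown fat. Cox4i2 is of another kind, an isoform of lung and of cells short of oxygen.

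The values are log2 expression values as the authors deposited them, and the background is 2.55, the highest reading among nonspecific controls whose probes hold 3 to 24 G or C bases. Probe sets differ in how well they hybridise, so the level of one gene is not set against that of another, and only differences between arrays are compared. The adipocyte label was borne out by Adipoq, the adiponectin gene, at 11.75 to 11.86, and by the uncoupling protein gene Ucp1 at 7.51 and 7.73 in scramble, against 5.53 and 5.98 in shBlnc1. Replicates correlated across probe sets at 0.994 (scramble) and 0.996 (shBlnc1), and arrays of different groups at 0.982 to 0.984. Controls for RNA integrity, ribosomal RNA and a liver transcript differed between the groups. The log2 difference between the 3' and 5' control probe sets of Actb was 0.99 and 1.15 in scramble and 1.77 and 1.88 in shBlnc1, and that of Gapdh averaged 0.06 and 0.37. A control on the central stretch of 18S ribosomal RNA read 5.13 and 4.43 in scramble and 6.64 and 7.01 in shBlnc1, and the share of probe sets above background averaged 62.9% and 60.4%. Alb, the serum albumin gene, read 6.28 and 5.70 in scramble and 4.43 and 2.50 in shBlnc1. The part of these in the results below was not tested.

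Cox8b and Cox7a1, the heart, muscle and brown fat isoforms of subunits 8 and 7a, fell in the shBlnc1 arrays, and so did Cox7a2l. Cox8b was 1.84-fold and Cox7a1 1.52-fold lower. Cox7a2l was 1.87-fold lower on its brightest probe set, and 1.38-fold and 1.67-fold lower on its others. At a limma adjusted p of 0.05 over all genes, 3 of the 9 passed as lower, 0 passed as higher and the other 6 did not pass, where 7.18% of all genes tested were lower and 11.4% higher. In all, 1228 genes were lower and 1941 higher, and the split was 1563 and 1513 after quantile normalization and 844 and 2383 after median centring of the arrays. The 3 calls and the sign of all 9 log2 fold changes held under both rescalings. The 4 ubiquitous isoforms were not called in this fit, with log2 fold changes of -0.07 to -0.23. With eBayes using an intensity trend, which gives bright probe sets a smaller variance, 6 of the 9 were lower, against 10.5% of all genes, and the additional ones were Cox4i1, Cox7a2 and Cox8a. These are bulk measurements, in which fewer cells of a type and less RNA per cell cannot be told apart.

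**Figure D1:**
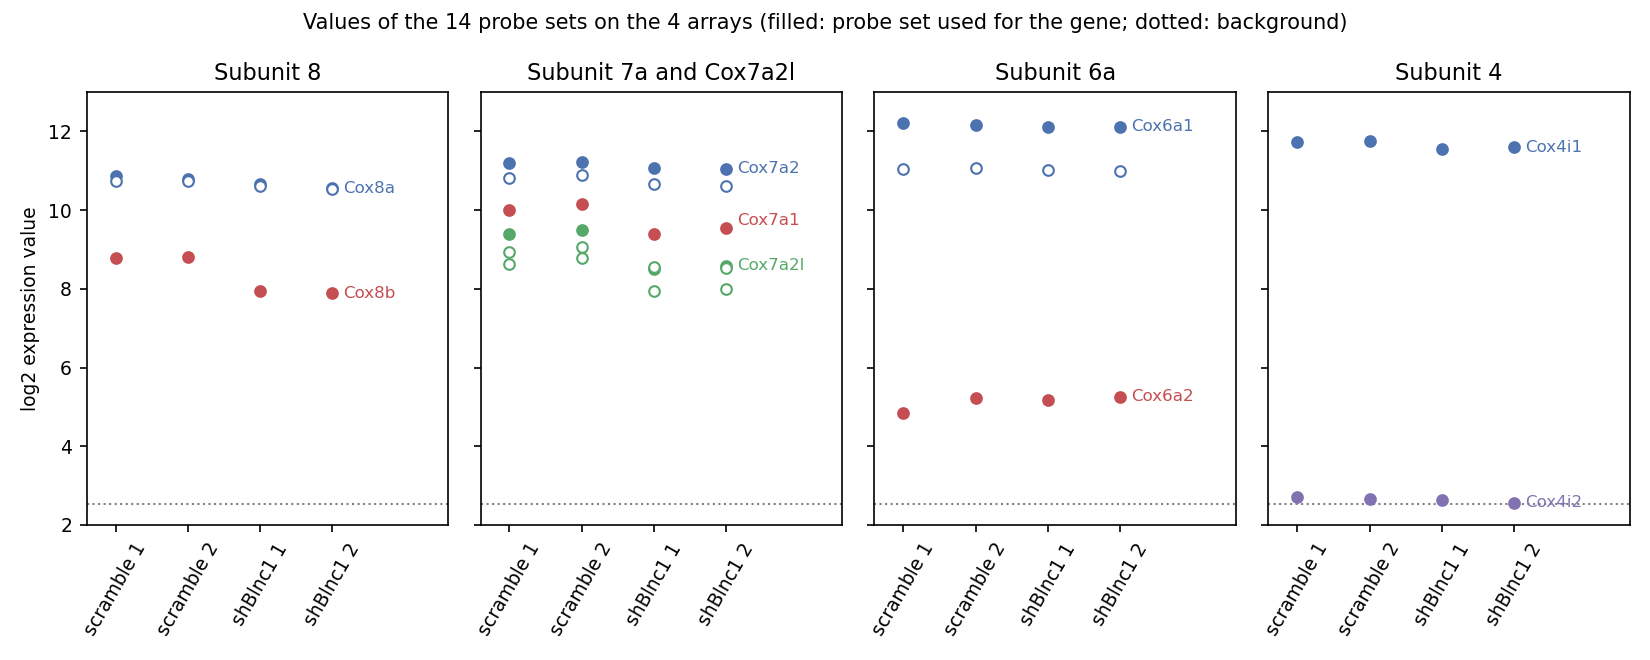
Log2 expression value (vertical axis) of the 14 probe sets on each of the 4 arrays (horizontal axis), by subunit; red points are the heart and muscle type isoforms, blue the ubiquitous ones, green Cox7a2l and purple Cox4i2, filled points are the probe set used for the gene and the dotted line is the background of 2.55. Cox8b drops from 8.79 and 8.80 in scramble to 7.95 and 7.89 in shBlnc1, and Cox4i2 lies just above the background.

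The region before the start of the 3 genes that fell, and of the ubiquitous partners of Cox8b and Cox7a1, is shown because the isoforms of a pair differ there in CpG content. The sequences are the 250 bases before the annotated start, read 5' to 3' along the gene, from RefSeq (GRCm38.p6), and capitals mark each CpG dinucleotide. Cox8b lies at chr7:140900447-140900696, minus strand; Cox8a at chr19:7217617-7217866, minus strand; Cox7a1 at chr7:30183921-30184170, plus strand; Cox7a2 at chr9:79759854-79760103, minus strand. Cox7a2l lies at chr17:83514334-83514583, minus strand.
Cox8b: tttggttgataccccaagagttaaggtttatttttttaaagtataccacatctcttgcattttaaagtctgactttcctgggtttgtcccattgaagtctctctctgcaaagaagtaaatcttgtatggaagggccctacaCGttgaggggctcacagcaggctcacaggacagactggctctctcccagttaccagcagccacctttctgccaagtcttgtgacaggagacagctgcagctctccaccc
Cox8a: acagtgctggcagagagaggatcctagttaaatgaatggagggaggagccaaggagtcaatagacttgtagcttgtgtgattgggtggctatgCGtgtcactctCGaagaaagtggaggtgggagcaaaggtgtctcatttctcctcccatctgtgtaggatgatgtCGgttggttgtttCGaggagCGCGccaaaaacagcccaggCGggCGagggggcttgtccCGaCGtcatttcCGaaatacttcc
Cox7a1: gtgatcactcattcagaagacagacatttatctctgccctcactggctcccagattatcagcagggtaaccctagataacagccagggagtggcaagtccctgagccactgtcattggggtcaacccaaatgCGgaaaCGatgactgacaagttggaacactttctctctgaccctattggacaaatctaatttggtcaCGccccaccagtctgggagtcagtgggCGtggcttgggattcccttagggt
Cox7a2: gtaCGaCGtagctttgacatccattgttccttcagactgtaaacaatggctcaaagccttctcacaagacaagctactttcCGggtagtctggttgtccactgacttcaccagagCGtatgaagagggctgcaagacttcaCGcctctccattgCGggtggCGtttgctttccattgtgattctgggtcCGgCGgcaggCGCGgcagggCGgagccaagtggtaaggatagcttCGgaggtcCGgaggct
Cox7a2l: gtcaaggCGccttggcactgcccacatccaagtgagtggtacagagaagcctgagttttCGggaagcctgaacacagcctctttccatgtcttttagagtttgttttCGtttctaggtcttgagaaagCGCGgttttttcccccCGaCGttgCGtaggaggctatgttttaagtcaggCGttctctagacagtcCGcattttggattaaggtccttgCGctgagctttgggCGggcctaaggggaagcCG
The Cox8b stretch holds 1 CpG and the Cox7a1 stretch 4, while Cox8a holds 11, Cox7a2l 13, Cox7a2 14 and Cox6a1, not printed, 26. Over the 32851 RefSeq promoters of the same length the median was 6, with quartiles of 2 and 16. The share of G and C was 47.2% for Cox8b and 51.2% for Cox7a1, and 52.0% to 62.8% for the other 4 genes with a promoter entry, against a median of 52.4%.

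Motifs were searched on both strands over these bases and the first 50 after the start, for the 6 of 9 genes with an entry. The letters AGGTCA, a nuclear receptor half-site, and AAGGTCA, its extended form bound by oestrogen-related receptors, were in 0 of the 6, and in 16.3% and 4.72% of all promoters. The palindrome bound by EBF factors was also in 0 of 6, and in 0.904% of all. CCGGAAG, the core bound by ETS factors such as GABPA, was in Cox6a1 and Cox8a, at 1 and 2 places, and in 8.86% of all promoters. TATAAA was in Cox8b, 5 bases into the transcript (13.6% of all). CANNTG, the E-box, was in 5 of the 6 and in 72.3% of all. TGCGCA was in Cox6a1 (7.76% of all), which also held the palindrome bound by NRF1. That motif was added after the sequences had been seen and is in 0.971% of all promoters. A match is a description of the letters and not a measured site.

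Subunit 8 has 2 isoforms among these genes. Cox8b, the heart, muscle and brown fat isoform (Entrez Gene 12869, 1 probe set), read 8.79 and 8.80 in scramble and 7.95 and 7.89 in shBlnc1. Both shBlnc1 arrays lay far below both scramble arrays, and the replicates differed little. The log2 fold change was -0.88 (SE 0.099, 95% interval -1.11 to -0.64, n = 2 against 2, limma adjusted p = 0.00225). The adjusted p stayed between 1.86e-06 and 0.024 over all the alternatives, so the call held in each of them. Cox8a, the ubiquitous isoform (Entrez Gene 12868), read 10.87 and 10.80 in scramble and 10.65 and 10.55 in shBlnc1 on the brighter of its probe sets. The name of that probe set has an x, the mark of probes that can match other transcripts. The other one, without that mark, read 10.75 and 10.74 against 10.61 and 10.54. On both probe sets the groups do not overlap, with log2 fold changes of -0.23 (95% interval -0.48 to 0.010, limma adjusted p = 0.162) and -0.17 (95% interval -0.41 to 0.06), neither of them called.

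Subunit 7a has a muscle and brown fat isoform, a ubiquitous isoform and a relative. Cox7a1 (Entrez Gene 12865, 1 probe set) read 10.01 and 10.14 in scramble and 9.40 and 9.54 in shBlnc1. The groups do not overlap, and their gap was larger than the spread within either. The log2 fold change was -0.60 (SE 0.11, 95% interval -0.87 to -0.34, limma adjusted p = 0.0126). That call rested on both shBlnc1 arrays: the limma adjusted p was 0.091 without replicate 1 and 0.0518 without replicate 2, at log2 fold changes of -0.53 and -0.68. Without these arrays the share of all genes called lower was 1.82% and 1.49%. Cox7a2, the ubiquitous isoform (Entrez Gene 12866), read 11.19 and 11.22 in scramble and 11.07 and 11.05 in shBlnc1, and its dimmer probe set 10.83 and 10.88 against 10.66 and 10.61. Its log2 fold changes were -0.14 (95% interval -0.37 to 0.09, limma adjusted p = 0.351) and -0.22 (95% interval -0.46 to 0.02), with no overlap of the groups on either probe set and no call.

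Cox7a2l (Entrez Gene 20463), also known as COX7RP or SCAF1, encodes a protein related to subunit 7a that joins complex IV to complex III in respiratory supercomplexes. It is not confined to muscle, so it belongs to neither isoform type. Its brightest probe set read 9.39 and 9.50 in scramble and 8.49 and 8.59 in shBlnc1, the largest change among the 9 genes, with a log2 fold change of -0.90 (SE 0.11, 95% interval -1.15 to -0.65, limma adjusted p = 0.00254). An x in that probe set's name marks probes that can match other transcripts. The dimmest, without that mark, read 8.63 and 8.77 against 7.95 and 7.98, a log2 fold change of -0.74. The third, also unmarked, read 8.94 and 9.06 against 8.56 and 8.52, a log2 fold change of -0.46 (95% interval -0.71 to -0.22). All 3 probe sets were lower, with no overlap of the groups, and passed 0.05 when adjusted over all probe sets (limma adjusted p = 0.00323, 0.00623 and 0.0286), as did 5.38% of all probe sets in that direction. The size of the fall thus ranged from 1.38-fold to 1.87-fold with the probe set, and on the unmarked probe sets it was smaller than that of Cox8b.

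Subunit 6a gave another picture. Cox6a2, the heart and muscle isoform (Entrez Gene 12862, 1 probe set), read 4.84 and 5.22 in scramble and 5.17 and 5.26 in shBlnc1. The groups overlap, and 1 scramble array was below the other 3. The log2 fold change was 0.18 (95% interval -0.16 to 0.52, limma adjusted p = 0.418), and without scramble replicate 1 it was -0.0073. A fall as large as that of Cox7a1 or Cox8b lies outside this interval. Cox6a1, the ubiquitous isoform (Entrez Gene 12861), read 12.22 and 12.16 in scramble and 12.11 and 12.12 in shBlnc1, near the top of the scale at 12.36. Its probe sets gave log2 fold changes of -0.07 (95% interval -0.30 to 0.16) and -0.06 (95% interval -0.30 to 0.17), and neither was called.

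Subunit 4 has no muscle isoform, and its pair was read apart from the others. Cox4i1, the ubiquitous isoform (Entrez Gene 12857, 1 probe set), read 11.74 and 11.76 in scramble and 11.56 and 11.59 in shBlnc1, a log2 fold change of -0.17 (95% interval -0.40 to 0.06, limma adjusted p = 0.263). The groups do not overlap, and with the intensity trend the limma adjusted p was 0.000992. Cox4i2, the lung and hypoxia isoform (Entrez Gene 84682, 1 probe set), read 2.70 and 2.66 in scramble and 2.62 and 2.56 in shBlnc1, against a background of 2.55. At readings this close to background a change in Cox4i2 was not detectable (log2 fold change -0.09, 95% interval -0.32 to 0.15).

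**Figure D2:**
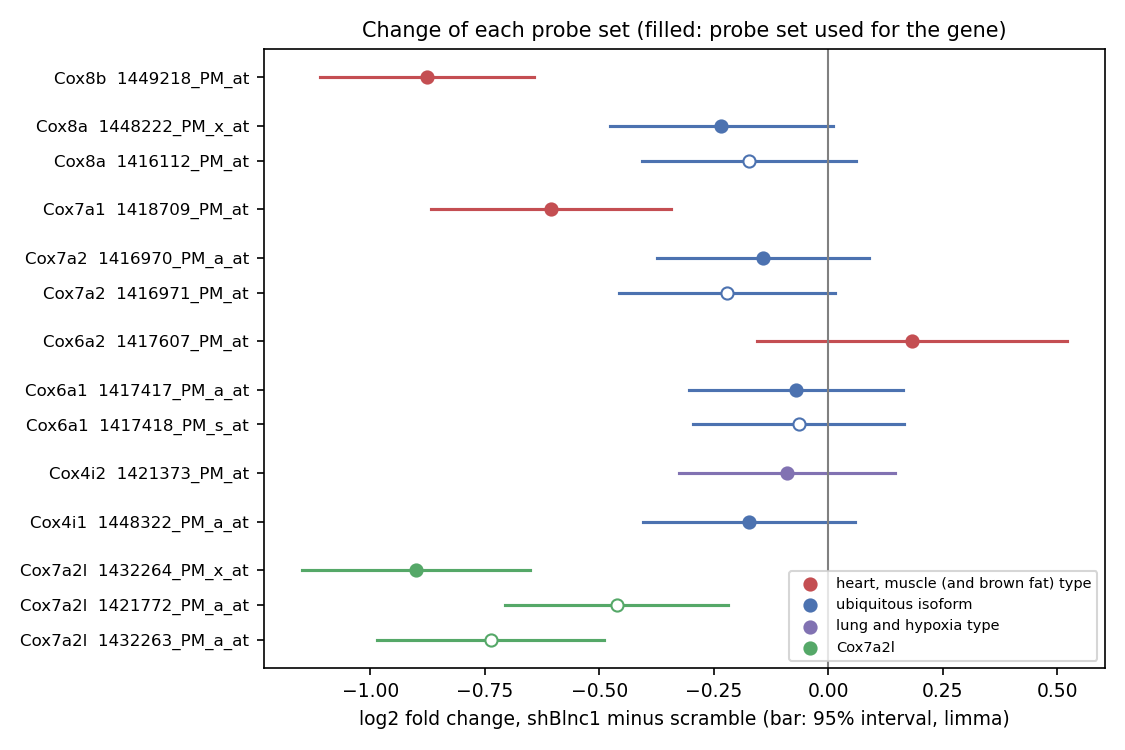
Log2 fold change of shBlnc1 against scramble (horizontal axis) for each of the 14 probe sets (vertical axis), with bars for the 95% interval from limma and filled points for the probe set used for the gene. The intervals of Cox8b, Cox7a1 and the 3 probe sets of Cox7a2l lie below 0, and those of the others include it.

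Of the 9 genes, 8 had a negative log2 fold change with no overlap of the groups, against 34.3% of all genes tested, and 13 of the 14 probe sets did, against 34.1% of all probe sets. The 4 ubiquitous isoforms were among them. Their median log2 fold change was -0.16, against -0.04 over all genes tested. After median centring these were -0.09 and 0.03, and after quantile normalization -0.17 and -0.03. The ubiquitous probe sets read between 10.54 and 12.22, in the upper part of the scale. Among 259 other genes with a mean above 10, the log2 fold changes ran from -1.18 to 1.41 with a median of -0.08, and 22 were lower and 21 higher. How many of these genes were as bright as Cox6a1 was not counted, and whether bright signals are compressed was not tested.

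Whether the tissue isoform changed more than its ubiquitous partner was read from the log2 difference between them within each array, using the brightest probe set of each gene. Its absolute size has no meaning, since it depends on the probes. Its shift between the groups can be read, but the size of the shift also varied with the probe set. For Cox7a1 it was -0.46 against the brighter Cox7a2 probe set and -0.38 against the dimmer one. For Cox8b it was -0.64 against the brighter Cox8a probe set, which has the x mark, and -0.70 against the unmarked one. Cox8b minus Cox8a was -2.08 and -1.997 in scramble and -2.70 and -2.66 in shBlnc1, a shift of -0.64. Cox7a1 minus Cox7a2 was -1.18 and -1.08 in scramble and -1.67 and -1.51 in shBlnc1, a shift of -0.46. In both pairs every shBlnc1 array lay below every scramble array, and the shift was several times the SD between replicates, which was 0.056 and 0.032 for the first pair and 0.073 and 0.11 for the second.

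Cox6a2 minus Cox6a1 was -7.37 and -6.94 in scramble and -6.94 and -6.86 in shBlnc1, a shift of 0.25 that was smaller than the SD of 0.31 in scramble, and the groups overlap. Cox4i2 minus Cox4i1 shifted by 0.08, also with no overlap of the groups, and Cox4i2 was near background. An exact two-sided permutation test over the 4 arrays gave p = 0.333 for the subunit 8, 7a and 4 pairs, the smallest that 2 arrays against 2 allow, and p = 0.667 for subunit 6a, so no pair could pass 0.05 in this design. With other probe sets, other scalings or 1 array left out, the shift ran from -0.74 to -0.60 for subunit 8 and from -0.54 to -0.38 for subunit 7a. It ran from 0.03 to 0.47 for subunit 6a and from 0.04 to 0.19 for subunit 4. The shift was downward in the subunit 8 and 7a pairs, and within the spread of the replicates for the subunit 6a pair. Outside these pairs a fall was not confined to brown fat markers. The testis isoforms Cox6b2 and Cox8c had log2 fold changes of -0.40 and -0.57, and Cox6b1, the ubiquitous partner of Cox6b2, had -0.09. Cox7b2, a further testis isoform, was at background. A difference between the pairs was not tested.

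**Figure D3:**
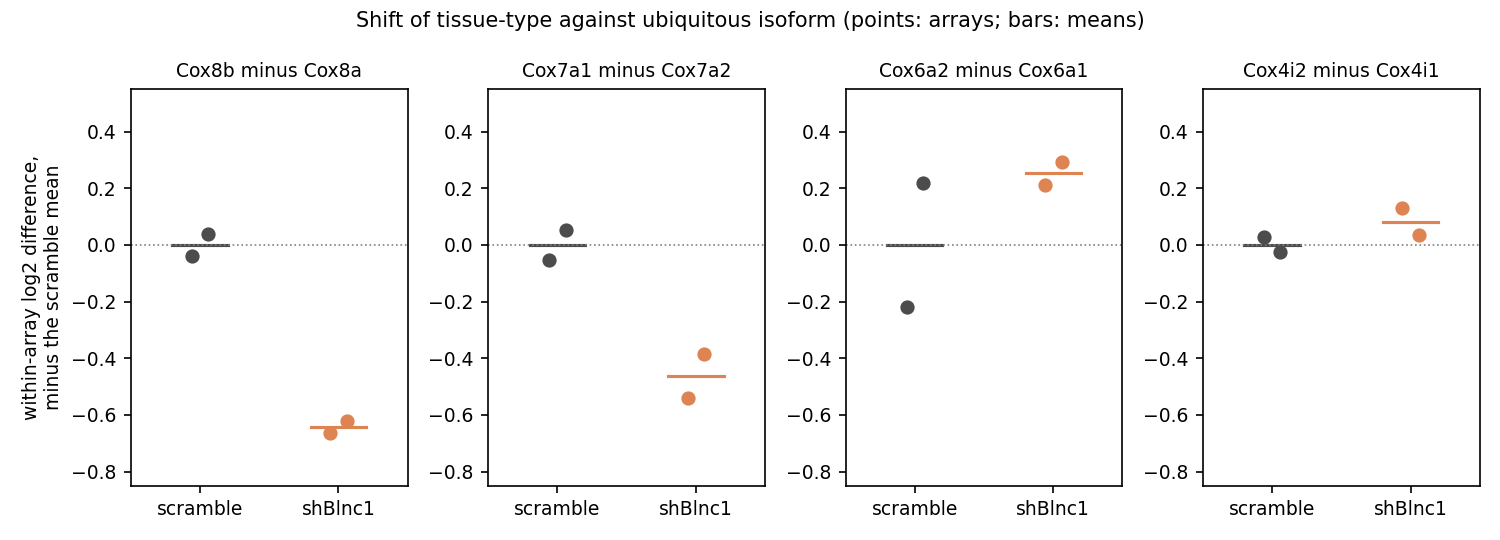
Within-array log2 difference between the tissue isoform and its ubiquitous partner, minus the scramble mean of that pair (vertical axis, log2 units), for the 4 isoform pairs, with 1 point per array and bars at the group means (horizontal axis, scramble and shBlnc1). The shBlnc1 points lie lower for Cox8b minus Cox8a (-0.64) and Cox7a1 minus Cox7a2 (-0.46), and not for the other pairs.

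The muscle isoforms could also come from muscle cells, so markers of skeletal and cardiac muscle were read alongside. Of 16 such markers 15 were measured, and their mean log2 value was 2.81 and 2.82 in scramble and 2.87 and 2.91 in shBlnc1, close to the background. The actin gene Acta1 of skeletal muscle read 2.76 to 3.01 and the muscle creatine kinase gene Ckm 3.24 to 3.51 over the 4 arrays. Of the 15 markers 1 was lower (Myod1) and 2 higher (Tnnc2 and Myl1). Of the 15, 9 were above background on all 4 arrays and 3 were at background in both groups, so this mean could show little of a fall. Of 8 hepatocyte markers measured, 6 were lower, and their mean went from 4.93 and 4.71 to 3.73 and 3.16. Of 6 pericyte and smooth muscle markers measured, 3 were at background in both groups and 1 was higher (Pdgfrb). Macrophage and endothelial markers averaged 2.71 to 2.94 and 2.74 to 2.81 per array, with 1 higher gene each (Adgre1 and Tek), and of 5 preadipocyte and fibroblast markers 4 were higher (Pdgfra, Dlk1, Cd34 and Col1a1). The part of these cells in the results was not tested.

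Among 7 brown adipocyte markers measured, 3 were lower (Ucp1, Cidea and Dio2), 2 were higher (Elovl3 and Lhx8) and 2 were not called. Those not called, Prdm16 and Ebf2, had log2 fold changes of -0.26 and -0.40. All 7 had an unadjusted limma p under 0.05. Cox8b and Cox7a1 thus had the sign of 5 of the 7. Cidea, a lipid droplet protein gene, read 8.28 and 8.40 in scramble and 6.29 and 6.37 in shBlnc1. Among 7 general adipocyte markers 1 was lower (Cebpa), 1 was higher (Cd36) and 5 were not called. Of these 7, 3 had an unadjusted limma p under 0.05, and a marker that was not called is not shown to be unchanged. Whether Cox8b and Cox7a1 changed apart from the general adipocyte markers was not tested.

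The rest of the enzyme was read from the other nuclear subunits. Of 9 measured, 2 were lower and 0 higher, with a median log2 fold change of -0.12. Those lower were Cox8c, an isoform of subunit 8 known from testis (4.12 and 4.11 in scramble, 3.63 and 3.46 in shBlnc1), and Cox6b2, a testis isoform of subunit 6b (6.36 and 6.36 against 6.01 and 5.90). The subunits with no tissue isoform here, Cox5a, Cox5b, Cox6c, Cox7c and Ndufa4, had log2 fold changes of -0.004, -0.06, -0.20, -0.21 and 0.03 and were not called. Cox6b1, the ubiquitous partner of Cox6b2, had -0.09.

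Of 23 assembly factors, which insert copper and haem or bring subunits together, 4 were lower and 0 higher, with a median of -0.19. Cmc1, which helps build the complex around its first core subunit, read 8.74 and 8.77 in scramble and 8.14 and 8.15 in shBlnc1 (log2 fold change -0.61). Coa8 and Higd2a followed with -0.52 and -0.38.

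Other parts of the respiratory chain gave medians of similar size. Of 9 genes of complex III and cytochrome c 3 were lower, Uqcrc1 (-0.61), Uqcr10 (-0.40) and Uqcr11 (-0.38), and the median was -0.22. Of 6 complex I core genes 2 were lower, Ndufs7 (-0.46) and Ndufv2 (-0.40), and the median was -0.22. Of 15 ATP synthase genes 0 were called by limma in this fit or after either rescaling, with the replicate block or with any array left out. In limma 1 of them, Atp5e (-0.31), had an unadjusted p under 0.05, and the list's median was -0.10. The ubiquitous isoforms, with a median of -0.16, lay between these medians. The lowest value in the oxidase, complex I, complex III and ATP synthase lists was -0.61, against -0.88 for Cox8b and -0.90, -0.74 and -0.46 for the probe sets of Cox7a2l. Cox7a1, at -0.60, was no lower than Cmc1 or Uqcrc1. These counts rest on few calls: with 1 array left out, the called members numbered 0 or 1 for the other oxidase subunits and for complex III, and 0 to 2 for the assembly factors and complex I. After quantile normalization 7 assembly factors were lower, and 2 after median centring. None of these lists was run with the intensity trend, under which 6 isoform genes were lower.

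**Figure D4:**
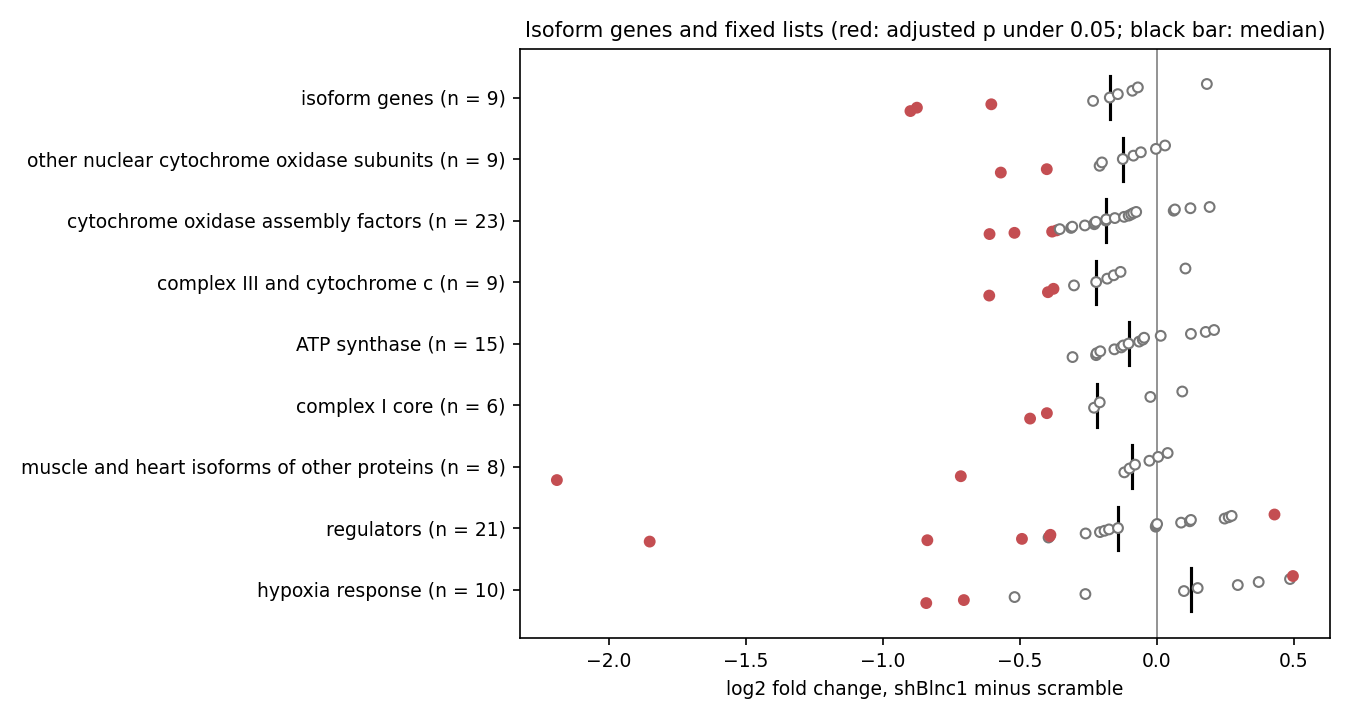
Log2 fold change of shBlnc1 against scramble (horizontal axis) for the 9 isoform genes and the genes of 8 lists (rows), with red points for a limma adjusted p under 0.05 and a black bar at each list's median. The isoform genes have 3 red points, at -0.90, -0.88 and -0.60, apart from the other 6, and the list medians lie between -0.22 and 0.12.

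Muscle and heart isoforms of other proteins were compared with those of the oxidase. Of 8 measured, 2 were lower and 0 higher. Mb, the oxygen-binding myoglobin of muscle, read 8.38 and 9.02 in scramble and 6.44 and 6.58 in shBlnc1 (log2 fold change -2.19). Cpt1b, the muscle and brown fat isoform of carnitine palmitoyltransferase, read 6.90 and 7.06 against 6.19 and 6.34 (-0.72). Slc25a4, the muscle isoform of the adenine nucleotide carrier, was not called (-0.08), nor was Eno3, muscle enolase (0.004). Ckmt2, Pgam2 and Pygm were at background in both groups, and Fabp3 had -0.12. Without shBlnc1 replicate 1 the list had 1 lower member.

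Of 21 regulators of mitochondrial and brown fat genes 5 were lower, 1 was higher (Hif1a) and 15 were not called. In limma 10 of the 21 had an unadjusted p under 0.05. With either scramble array left out 4 were called, and with either shBlnc1 array left out 2. Ppara, a nuclear receptor gene, read 6.22 and 6.18 in scramble and 4.41 and 4.28 in shBlnc1 (log2 fold change -1.85). Ppargc1b, a coactivator of mitochondrial genes, read 9.59 and 9.53 against 8.75 and 8.70 (-0.84). Esrra, the oestrogen-related receptor alpha gene, had -0.49. Nrf1 and Gabpa, known to act on ubiquitous oxidase subunit genes, had -0.003 and 0.25 and were not called, and the muscle factor genes Mef2a, Mef2c and Mef2d had -0.21, 0.12 and -0.19 and were not called. Ppargc1a is among the regulators not analysed here. For the hypoxia isoform Cox4i2, 10 hypoxia response genes were read. Of them 2 were lower (Ndufa4l2, -0.84, and Vegfa, -0.71), 1 was higher (Pdk1, 0.50) and 7 were not called. In limma 7 of the 10 had an unadjusted p under 0.05, so a gene not called is not shown to be unchanged. After median centring 5 of these were called, and without shBlnc1 replicate 1 there was 1. Rbpj and Cxxc5, whose products act at the Cox4i2 promoter, had log2 fold changes of 0.0005 and 0.26 and were not called.

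The genes whose profile over the 4 arrays was most like that of Cox8b, among 11452 genes above background on every array, were Atad3a, Afg1l and Kdm7a, at distances of 0.023, 0.030 and 0.053 log2 units between profiles centred on their means. For Cox7a1 they were Mcat, Acer2 and Bbs12 (0.019, 0.021 and 0.039), and for Cox6a2 Tmem38b, Cep83 and Tmem141 (0.035, 0.035 and 0.042). Atad3a read 7.22 and 7.26 in scramble and 6.41 and 6.33 in shBlnc1, and Mcat 6.08 and 6.20 against 5.48 and 5.61. A distance under 0.1 was reached by 27 genes for Cox8b, 28 for Cox7a1 and 41 for Cox6a2, so with 4 arrays many genes share such a profile.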

How the data were processed

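Expression was measured in 4 samples on Affymetrix mouse MG-430 PM arrays, of which the authors deposited 1 log2 value per probe set and array. Per the submitters' processing notes the tools were affy, RMA and limma, with no versions or roles, and how the table was normalized is not stated in what was used here. Labelling used a 3' in vitro transcription kit, per the labels' protocols, which copies from the poly(A) tail, so that degraded RNA lowers signals towards the 5' end. The number of arrays limits the precision. The scale was inferred from the range of the values, 1.05 to 12.36 (log2). Of 45141 probe sets 104 are controls, and of the others 28898 carry 1 symbol, 551 several and 15588 none.

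For each gene the brightest probe set, by its mean on all 4 arrays, was used. limma 3.58.1 (R 4.3.3) was fitted to all 45037 probe sets, with the group as the only term, two-sided, and Benjamini-Hochberg adjusted over 17097 genes (threshold 0.05). Residual and prior degrees of freedom were 2 and 4.93. The fit was tested on simulated data. Isoform pairs were compared by an exact permutation test (scipy 1.17.1), and lists by counts and medians. List symbols that the annotation holds under an older name were matched through RefSeq synonyms. The alternatives were other scalings, filters, variance settings, probe set choices, the replicate block and leaving out each array, with a lone array taken to have the spread of the remaining group. Named genes are the 9 isoform genes, up to 3 called genes with the largest change per list (lists of 10 or fewer may be given whole), adipocyte markers, and the 3 nearest profiles for Cox8b, Cox7a1 and Cox6a2. Others were named after their values were seen, where a count is small. The genes and lists were chosen with earlier results of these data known. Plots used matplotlib 3.10.9.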

Additional observations from a re-analysis of the deposited data

How the results depend on the processing

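Leaving out 1 array gave 2 or 3 lower isoform genes in place of 3, and 1050 to 2841 called genes in place of 3169; both low counts came from leaving out an shBlnc1 array. eBayes with a trend called 6 of the isoform genes as lower, where 10.5% of all genes were. With every probe set on its own, 5 of the 14 were called, all of them lower, where 5.38% of all probe sets were lower. In all, 6356 of 45037 probe sets were called. The log2 fold change of Cox6a2 ran from -0.0073 (without scramble replicate 1) to 0.37 with 1 array left out. Cox8b and Cox7a2l were called in every alternative run, at limma adjusted p-values up to 0.024 and 0.0286. No isoform gene other than Cox6a2 changed sign. Cox4i2 is among the dimmest 40% of genes and has no value without them. Whether same-numbered arrays of the groups are paired is not given in the labels. The correlation of their deviations across genes was 0.034, and with the replicate block 3 isoform genes and 3179 genes were called. With 2 arrays a group, a median standard error of 0.11 log2 units limits what can be detected, and Cox4i2 is limited by its signal over background. The cause of the changes with setting was not tested.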

Other observations

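Isoforms and relatives of oxidase subunits outside the 9 genes were read gene by gene. Cox6b2, the testis isoform of subunit 6b, changed by -0.40 on the log2 scale (limma, adjusted p = 0.0361), and Cox6b1, the ubiquitous one, was not called (-0.09). Ndufa4l2, a hypoxia-induced relative of Ndufa4, read 4.18 and 4.70 in scramble and 3.72 and 3.48 in shBlnc1 (log2 fold change -0.84, limma adjusted p = 0.0218), while Ndufa4 read 10.74 and 10.73 against 10.76 and 10.78. Cox7b2, a testis isoform of subunit 7b, was at background in both groups. These readings rest on 2 arrays a group, and differences between the members of a pair were not tested.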
